A study of Mus musculus with 8 samples.

Results

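Sox9, the keratins and other genes known as markers of bile duct cells were followed in mouse primary hepatocytes given glucagon, the FXR agonist GW4064, or both. The set had 9 genes: Sox9, Krt7, Krt8, Krt18, Krt19, Krt20, Spp1, Epcam and Cd24a. Each was read from a probe set to which the annotation of the mouse gene array (MoGene 2.0 ST) gave that symbol alone, and for a gene with more than 1 such probe set the brightest on average over the 8 arrays was taken. The annotation table gave a probe set to 8 of the 9 genes, and Spp1 was not analysed here. Of these, 7 exceeded the 40th percentile of the array on at least 2 arrays and were tested among 13845 genes in all. The gene left out by this filter was Krt7.

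The cells were hepatocytes of male C57Bl6J mice, cultured in low-glucose medium with albumin, glutamine and 100 nM dexamethasone, a glucocorticoid that every group received. They were treated for 6 h with 100 nM glucagon and 2 µM GW4064 together, with glucagon alone at that dose, with GW4064 alone at that dose, or with the solvent DMSO. Each treatment was measured on 2 arrays, 1 from each of 2 experiments, and each experiment used cells pooled from 3 mice. Glucagon, a hormone of fasting, acts on hepatocytes through cyclic AMP, and GW4064 is a man-made compound that activates FXR, the nuclear receptor for bile acids. The comparisons ask how each agent and their combination moved these genes, and how far the 2 experiments differed. Values are log2 signals as deposited, differences are on the log2 scale with the standard error (SE) of a linear model (limma), and a gene is said to rise or fall at a Benjamini-Hochberg adjusted p below 0.05 over all genes tested.

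Sox9 is a transcription factor of bile duct precursor cells and of mature duct cells, and it is a known target of Notch signalling in the liver. Keratins are intermediate filament proteins that pair a type II chain with a type I chain. Adult hepatocytes build their filaments from the type II keratin Krt8 and the type I keratin Krt18, while bile duct cells also hold Krt7 and Krt19. Spp1 (osteopontin, a secreted matrix protein), Epcam (an adhesion molecule) and Cd24a (a small surface glycoprotein) are used as surface or secreted markers of duct and progenitor cells, and Krt20 is best known as a keratin of the gut lining.

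The hepatocyte label was checked first. The albumin gene Alb lay between 12.97 and 13.11 on the 8 arrays, and the hepatocyte transcription factor Hnf4a lay between 7.49 and 8.90. The level that the filter required was 3.13 to 3.17 on 7 arrays and 3.27 on the GW4064 array of experiment 2. That array stood apart from the others, with correlations of 0.975 to 0.985 to them over all genes tested, against 0.976 to 0.997 among the other 7. Because these are bulk samples, fewer cells of a type and less RNA per cell cannot be told apart.

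Sox9 (probe set 17257946) had lower signals on every array that received glucagon. In experiments 2 and 1 it read 5.94 and 5.48 with glucagon plus GW4064, 5.76 and 5.43 with glucagon, 6.32 and 7.88 with GW4064, and 6.83 and 6.88 with DMSO. The 4 arrays with glucagon therefore lay below the 4 without it, and the lowest array without glucagon was the GW4064 array of experiment 2. The means were 5.65 ± 0.24 with glucagon and 6.98 ± 0.66 without (SD, n = 4 each). The difference was -1.32 (SE 0.32, 95% interval -2.08 to -0.56), a 2.50-fold lower signal, but its adjusted p was 0.133 and it did not pass. With the experiment as a block the adjusted p was 0.0662.

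Sox9 had its widest spread on the GW4064 arrays, at 7.10 ± 1.11, against 6.85 ± 0.04 with DMSO (SD, n = 2 each). Without the GW4064 array of experiment 2 the difference over all glucagon arrays was -1.71, and without that of experiment 1 it was -0.93. Each of these fits leaves 1 GW4064 array, so the spread of that group no longer enters. The call of Sox9 changed in both fits, but for this reason only the size is given. Leaving out any 1 of the arrays gave -1.71 to -0.93. With the experiment as a block and without the GW4064 array of experiment 2, Sox9 gave -1.77. Glucagon alone against DMSO gave -1.26 (SE 0.46, adjusted p = 0.624), and glucagon plus GW4064 against GW4064 gave -1.39 (SE 0.46, adjusted p = 0.389). The last value was -2.17 without the GW4064 array of experiment 2 and -0.61 without that of experiment 1. Both sets of arrays enter the comparison of all glucagon arrays, so these values are not separate evidence.

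The hepatocyte keratins Krt8 and Krt18 kept signals far above the filter in every group and moved over a narrow range. Krt8 (probe set 17322113) read 11.44 and 11.58 with glucagon plus GW4064 in experiments 2 and 1, 11.55 and 11.63 with glucagon, 11.98 and 11.87 with GW4064, and 11.70 and 11.79 with DMSO. Its arrays with glucagon all lay below those without it, at 11.55 ± 0.08 against 11.84 ± 0.12 (SD, n = 4 each). The difference of -0.29 (SE 0.09, 95% interval -0.49 to -0.08) had an adjusted p of 0.191, or 0.0919 with the experiment as a block. With glucagon plus GW4064 against GW4064 it was -0.42 (SE 0.12, adjusted p = 0.342), and with glucagon against DMSO it was -0.15 (SE 0.12, adjusted p = 0.916).

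Krt18 (probe set 17315245), the type I partner of Krt8, read 11.68 and 11.69 with glucagon plus GW4064, 11.70 and 11.78 with glucagon, 11.81 and 11.91 with GW4064, and 11.82 and 11.83 with DMSO in experiments 2 and 1. The groups with and without glucagon did not overlap here either. The difference between them was small, at -0.13 (SE 0.08, 95% interval -0.32 to 0.06, adjusted p = 0.511). A further probe set annotated to Krt18 (17322125) read 9.86 and 10.16 with glucagon plus GW4064, 10.12 and 10.06 with glucagon, 9.36 and 10.27 with GW4064, and 10.26 in both DMSO arrays. On that probe set the lowest array was the GW4064 array of experiment 2, which received no glucagon, so its groups overlapped. Both probe sets are annotated to the same gene, and their readings differed in this respect.

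Krt20 (probe set 17269085) was lower with glucagon in each experiment, but the experiments lay further apart than the treatments. It read 3.79 and 5.05 with glucagon plus GW4064 in experiments 2 and 1, 4.13 and 5.38 with glucagon, 4.34 and 6.25 with GW4064, and 4.55 and 6.23 with DMSO. In 4 of 4 matched pairs the glucagon array was below its partner, by 0.42 to 1.20. The mean over glucagon arrays was 4.59 ± 0.75, against 5.34 ± 1.04 without glucagon (SD, n = 4 each). Without a term for the experiment the difference of -0.75 had an SE of 0.59 and an adjusted p of 0.613. With the experiment as a block the SE was 0.13 (95% interval -1.07 to -0.44), the adjusted p was 0.0281, and Krt20 fell 1.69-fold. The call was lost (adjusted p = 0.344) with the experiment as a random block, at an estimated correlation of 0.233 over all genes.

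The 3 keratins that were lower in every glucagon pair are shown by their upstream sequences, because Krt8 and Krt18 lie near each other and Krt20 lies on another chromosome. Each window is the 250 bases before the RefSeq start of the gene in build GRCm38.p6, read 5′ to 3′ on the strand of the gene. Capitals mark matches to GTGGGAA (the core bound by RBPJ, the DNA-binding partner of Notch), GGAATG (the core bound by TEAD factors) or TATAAA (the TATA box).
Krt8, chr15:102004343-102004592, minus strand: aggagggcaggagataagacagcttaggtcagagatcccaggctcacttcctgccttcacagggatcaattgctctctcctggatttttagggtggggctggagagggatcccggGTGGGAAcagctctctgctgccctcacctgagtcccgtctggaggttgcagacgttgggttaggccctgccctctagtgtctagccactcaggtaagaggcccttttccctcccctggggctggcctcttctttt
Krt18, chr15:102027966-102028215, plus strand: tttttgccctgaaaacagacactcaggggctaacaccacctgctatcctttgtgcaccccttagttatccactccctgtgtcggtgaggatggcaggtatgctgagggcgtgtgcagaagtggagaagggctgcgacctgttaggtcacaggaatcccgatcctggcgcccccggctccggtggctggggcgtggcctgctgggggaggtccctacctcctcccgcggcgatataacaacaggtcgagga
Krt20, chr11:99438154-99438403, minus strand: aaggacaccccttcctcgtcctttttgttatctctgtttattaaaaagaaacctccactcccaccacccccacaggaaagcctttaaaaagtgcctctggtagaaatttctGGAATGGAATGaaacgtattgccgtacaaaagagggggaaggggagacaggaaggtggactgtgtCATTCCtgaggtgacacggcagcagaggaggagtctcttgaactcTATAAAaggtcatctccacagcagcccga
The Krt8 window held GTGGGAA at 135 bases before the start, a match found in 5.42% of 32851 promoter windows of the same length. The Krt20 window held GGAATG on its own strand at 139 and 134 bases, where the matches share 1 base, and on the opposite strand at 74 bases, and 12.6% of windows held this motif. It also held TATAAA at 29 bases before the start, as did 12.4% of windows. The cyclic AMP response element TGACGTCA (1.55% of windows) and its core TGACG (17.8%), part of the full element, were in none of the 3 windows. All motifs were searched on both strands, they were chosen with the expression values known, and a match in letters is not evidence of binding. In RefSeq, 2 other genes have a start coordinate between those of Krt8 and Krt18 on chromosome 15, counted without regard to strand.

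**Figure D1:**
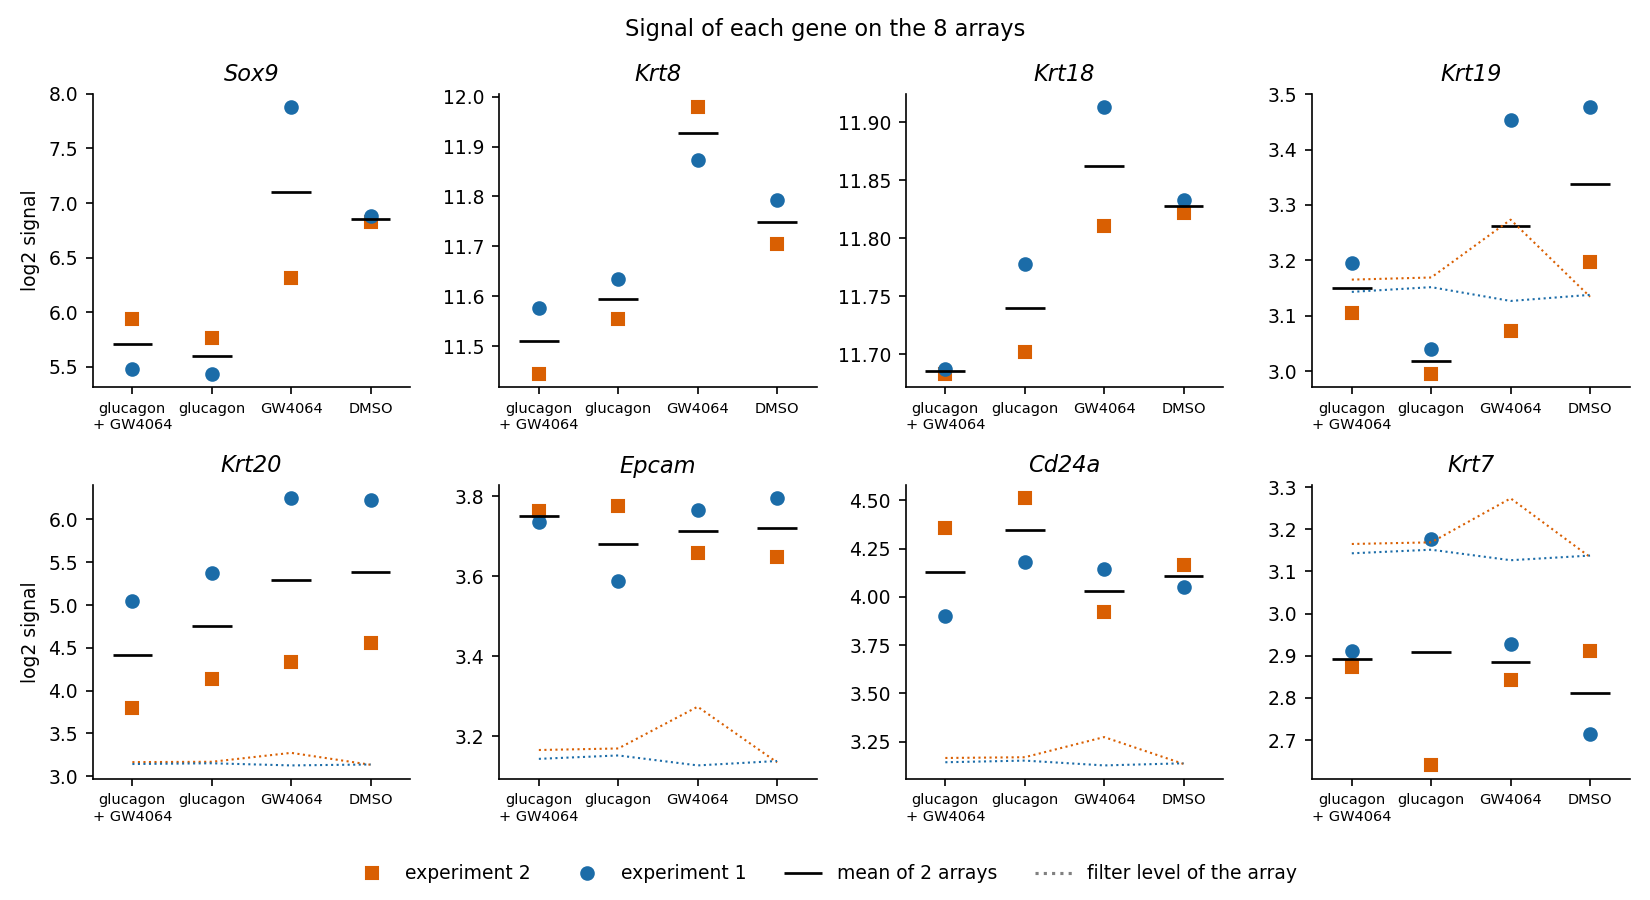
Log2 signal of the 8 genes with a probe set on each array, 1 panel per gene, with treatments along the x axis and the log2 signal on the y axis. Points are single arrays of experiments 2 and 1 horizontal bars are the mean of the 2 arrays, and dotted lines, where drawn, are the filter level of each array. The Sox9 points with glucagon lie between 5.43 and 5.94 and those without it between 6.32 and 7.88, while the Krt20 points separate by experiment.

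The bile duct keratins were at the lower edge of measurement. Krt19 (probe set 17269368) read 3.10 and 3.20 with glucagon plus GW4064 in experiments 2 and 1, 2.99 and 3.04 with glucagon, 3.07 and 3.45 with GW4064, and 3.20 and 3.48 with DMSO, and it exceeded the filter on 4 of 8 arrays. Its difference over all glucagon arrays was -0.22 (SE 0.12, adjusted p = 0.469). Krt7, the type II keratin of duct cells, read between 2.64 and 3.18 and exceeded the filter on 1 array, the glucagon array of experiment 1. No difference can be read for a gene at that level.

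Epcam and Cd24a, the surface markers, showed no difference that passed. Epcam (probe set 17340272) read 3.76 and 3.74 with glucagon plus GW4064 in experiments 2 and 1, 3.78 and 3.59 with glucagon, 3.66 and 3.76 with GW4064, and 3.65 and 3.79 with DMSO. The groups overlapped fully, and the difference over all glucagon arrays was -0.00 (SE 0.09, adjusted p = 0.997). Cd24a (probe set 17233022) read 4.36 and 3.90 with glucagon plus GW4064, 4.51 and 4.18 with glucagon, 3.92 and 4.14 with GW4064, and 4.17 and 4.05 with DMSO, in the same order of experiments. It was higher with glucagon in 3 of 4 pairs, and the difference was 0.17 (SE 0.14, adjusted p = 0.635). It was 0.0520 to 0.280 with 1 array left out, 0.0357 with the block and without the GW4064 array of experiment 2, and 0.0177 with the mean of its probe sets. A further Cd24a probe set read between 3.33 and 4.52, with its highest value on the GW4064 array of experiment 2.

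Over all glucagon arrays, 0 of the 7 genes passed in limma without the block, against 1.32% of all genes tested. At an unadjusted p below 0.05 limma called 2 of the 7 (Sox9 and Krt8), against 14.5% of all genes. With the experiment as a block 1 of 7 passed (Krt20), against 5.76% of all genes, and with the random block 0 of 7 passed. In Sox9, Krt8 and Krt18 the glucagon arrays all lay below the arrays without glucagon, as they did in 6.88% of genes tested, and in none of the 7 did they all lie above, against 6.07%. Sox9, Krt8, Krt18 and Krt20 were lower in 4 of 4 pairs, as were 16.7% of genes tested. None of the 7 was higher in all 4 pairs, against 15.4% of genes. The median difference of the 7 was -0.22 and that of all genes was -0.00. The genes were chosen with earlier results of these data known, so these counts describe the set only.

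**Figure D2:**
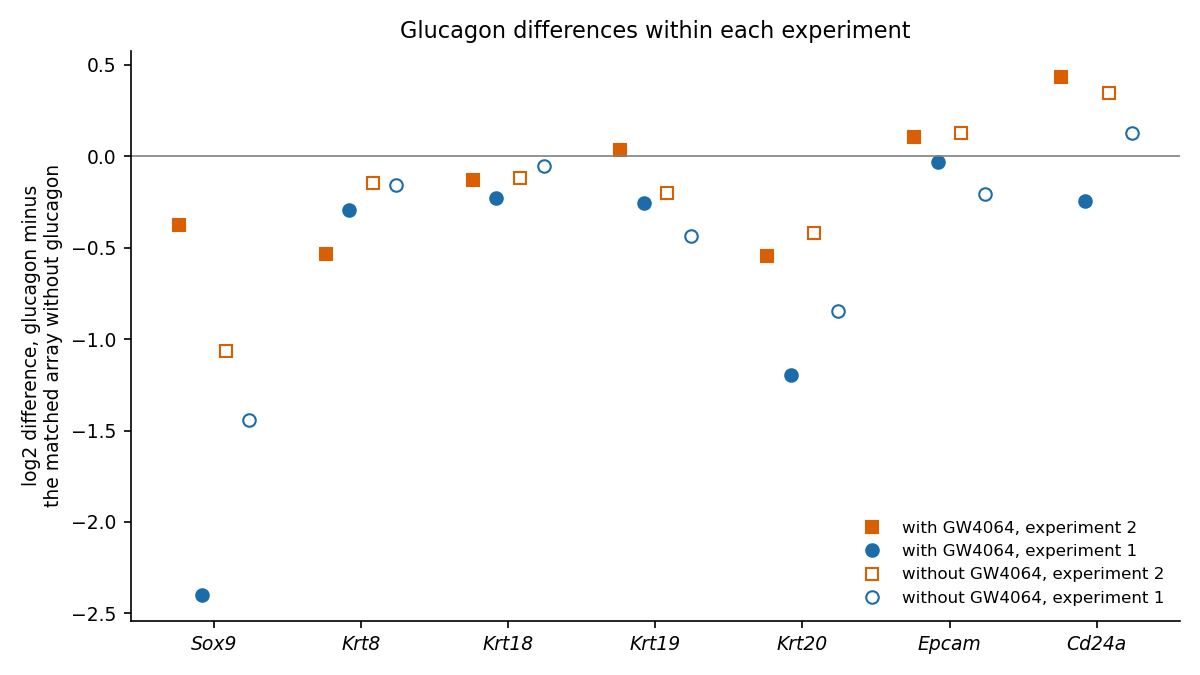
Difference between arrays with and without glucagon in the 4 matched pairs, on the log2 scale, for the 7 tested genes. Each point is 1 pair of arrays of the same experiment, and values below 0 mean a lower signal with glucagon. Sox9 spans -2.40 to -0.38 and Krt8 spans -0.54 to -0.15, while the Epcam and Cd24a points lie on both sides of 0.

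GW4064 gave no difference that passed in any of the 7 genes. Across the single comparisons, 0 of 7 were called by limma for GW4064 against DMSO (0% of all genes) and 0 of 7 had an unadjusted p below 0.05, against 2.69% of all genes. On Sox9 the experiments went opposite ways: GW4064 against DMSO gave -0.51 in experiment 2 and 1.00 in experiment 1, and the mean was 0.25 (SE 0.46, 95% interval -0.83 to 1.32, adjusted p = 0.999). On top of glucagon, GW4064 gave 0.11 for Sox9 (SE 0.46), where 0 of 7 genes had an unadjusted p below 0.05 in limma, against 0.65% of all genes. The intervals therefore leave room for changes of either sign. Averaged over both glucagon levels the GW4064 difference of Sox9 was 0.18 (SE 0.32, 95% interval -0.58 to 0.94), and the 7 genes spanned -0.22 to 0.18. In that comparison 0 of 7 passed in limma (0% of all genes) and 0 had an unadjusted p below 0.05, against 1.56% of all genes. In none of the 7 did the GW4064 arrays all lie below (0.607% of genes) or all above (0.571%) the arrays without it.

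Whether the glucagon difference changed when GW4064 was present was tested as an interaction. For Sox9 it was -0.13 (SE 0.64, 95% interval -1.65 to 1.39), and 0 of the 7 genes passed in limma, as 0% of all genes did, and 0 of 7 had an unadjusted p below 0.05, against 1.08% of all genes. With both agents against DMSO, Sox9 stood at 5.71 ± 0.32, against 6.85 ± 0.04 with DMSO (SD, n = 2 each), a difference of -1.14 (SE 0.46, adjusted p = 0.754). Krt20 gave -0.97 (SE 0.83, adjusted p = 1.00, or 0.0962 with the block), and leaving out 1 array gave -1.81 to -0.13. In the comparisons with DMSO and with GW4064 alone, 0 of the 7 genes passed, against 0.116% of all genes for glucagon, 0.123% for both agents and 0.166% for both agents against GW4064. At an unadjusted p below 0.05 limma called 1 of the 7 for glucagon (6.7% of all genes), 1 for both agents (6.22%) and 2 for both agents against GW4064 (10.5%). The arrays of DMSO are shared by several of these comparisons.

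Krt20 differed most between the experiments. It averaged 4.21 ± 0.32 in experiment 2 and 5.73 ± 0.61 in experiment 1 (SD, n = 4 each), and the groups did not overlap, as in 8.27% of genes whose experiment 2 arrays all lay below. In experiment 2 it fell by 1.52 (SE 0.13, 95% interval -1.83 to -1.21, adjusted p = 0.00536), a 2.87-fold lower signal, with -1.67 for DMSO, -1.25 for glucagon, -1.91 for GW4064 and -1.26 for both agents. It was the 1 of the 7 genes called between experiments, against 5.16% of all genes, and also the 1 gene with an unadjusted p below 0.05, against 23.9% of all genes. Krt18, Krt19 and Krt20 were lower in experiment 2 in 4 of 4 pairs of one treatment, as were 20.8% of genes, and none of the 7 was higher in all 4, against 13.8%. The Krt20 call was lost without either DMSO array, where the difference was -1.47. Sox9 gave -0.21 (SE 0.32, adjusted p = 0.727), and Krt8, Krt18 and Epcam lay within 0.05 of 0. Krt19 gave -0.20 (SE 0.09, adjusted p = 0.234) and Cd24a gave 0.17 (adjusted p = 0.440).

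Other cell markers moved between the experiments as well, and among all genes 2.52% were lower and 2.64% higher in experiment 2. Of 10 tested genes of sinusoidal endothelium 4 were lower in experiment 2, and their mean log2 signal was 4.34 to 4.43 there, against 4.86 to 4.88 in experiment 1. Of 14 stellate cell and fibroblast genes with a probe set 7 were tested, and Lrat, Pdgfra, Col1a1 and Col1a2 did not exceed the filter. The 7 had means of 4.53 to 4.65 in experiment 2 against 4.21 to 4.28 in experiment 1. Among them 3 were higher, while 2 had a difference below 0, such as Acta2 at -0.25. Of 11 Kupffer cell genes 2 were higher. The 16 hepatocyte genes had means of 9.84 to 10.44 in experiment 2 and 9.35 to 10.24 in experiment 1, and 3 of them were higher. These ranges also span the treatments, because the list holds Pck1 and G6pc. Its means were 10.21 to 10.44 with glucagon and 9.35 to 9.87 without. Of 9 mesothelial markers with a probe set, 2 exceeded the filter, and Msln, Upk3b and Wt1 did not. Whether these shifts have a part in the Krt20 difference was not tested.

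The glucagon difference itself was compared between the experiments. For Sox9, experiment 2 gave -1.07 for glucagon against DMSO and -0.38 for both agents against GW4064, and experiment 1 gave -1.44 and -2.40. The difference of these effects was 1.20 (SE 0.45, adjusted p = 0.435). Leaving out 1 array gave 0.65 to 1.75. Of the alternatives run it passed only without the DMSO array of experiment 2 (1.66), in a fit that leaves 1 DMSO array. Krt20 gave 0.54 (SE 0.17, adjusted p = 0.365). In this comparison 0 of 7 genes passed in limma, 3 had an unadjusted p below 0.05 (10.6% of all genes), and 0.00722% of all genes passed.

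Related genes were read from lists of bile duct epithelium, of regulators that steer cells to the bile duct fate, of proteins that bind keratins, and of partners of the surface markers. Of 25 duct epithelial genes with a probe set 15 exceeded the filter, and among those below it were Cftr (a chloride channel), Sctr (the secretin receptor), Cldn7 and Muc1. Of the 15 tested, 0 rose and 0 fell over all glucagon arrays in limma without the block, with a median difference of 0.06 against -0.00 over all genes. With the block Prom1, a surface protein of progenitor cells, rose by 0.54 (adjusted p = 0.0452). Without the block its SE was 0.13 and its adjusted p was 0.120. Cdh1, the adhesion protein E-cadherin, gave -0.47 (adjusted p = 0.0324 with the block). Without the block its SE was 0.14 and its adjusted p was 0.178. With the random block at an estimated correlation both calls were lost (adjusted p = 0.0519 for Prom1 and 0.0627 for Cdh1).

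The fate regulators had no call without the block among 19 tested, and 12 of the 19 had a difference below 0, against 50.9% of all genes. With the block 4 fell (3.08% of all genes fell) and 0 rose (2.67% rose). These were Ccn2, a TEAD target that encodes a matrix protein (-1.18, adjusted p = 0.0471), and Rbpj (-0.60, adjusted p = 0.0350). The others were Tgfb2, a growth factor of the TGF-beta family (-0.89, adjusted p = 0.0333), and Wwtr1, the TEAD coactivator TAZ (-0.74, adjusted p = 0.00605). Without the block the SEs of these 4 genes were 0.25 for Ccn2, 0.15 for Rbpj, 0.24 for Tgfb2 and 0.23 for Wwtr1. Their adjusted p-values in that fit ran from 0.0895 (Ccn2) to 0.200 (Wwtr1). With the random block at an estimated correlation Ccn2 still passed (adjusted p = 0.0460), while Rbpj (0.0503), Tgfb2 (0.0574) and Wwtr1 (0.0553) did not. Ccn1, another TEAD target, gave -0.72 with an adjusted p of 0.0649 with the block. Between experiments 3 of the 19 passed, all lower in experiment 2: Jag1, a Notch ligand, by -0.80, Smad3, a mediator of TGF-beta signalling, by -0.70 and Wwtr1 by -0.57. All 3 calls were lost over all probe sets and when any 1 array of DMSO, glucagon or both agents was left out.

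**Figure D3:**
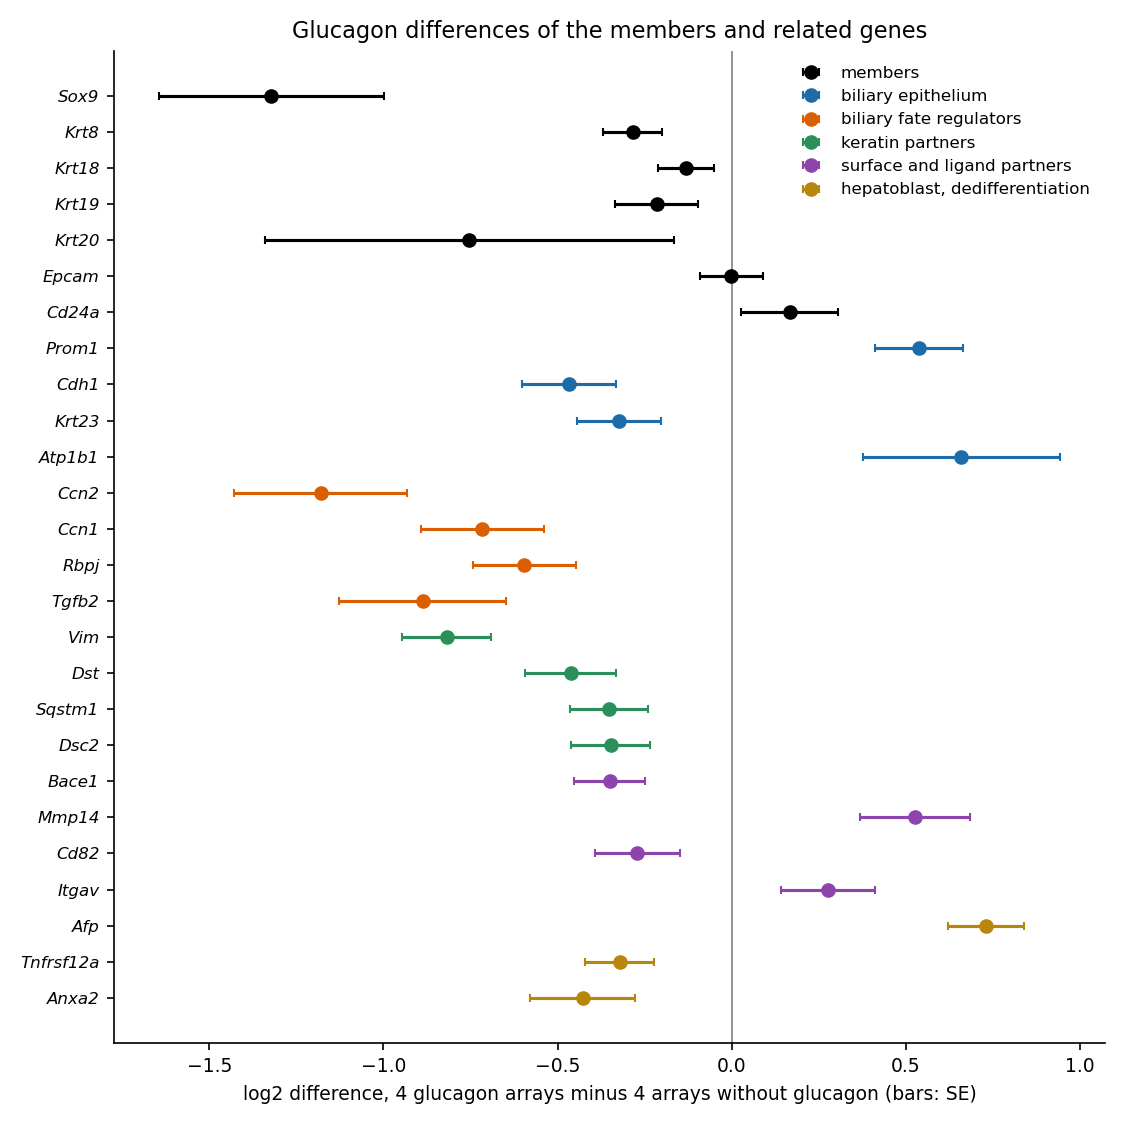
Difference over all glucagon arrays against all arrays without glucagon, on the log2 scale, for the 7 tested genes and for named genes of the related lists. Points are differences, bars are the SE from limma without the block, and colours are lists. Sox9 lies at -1.32, the fate regulators Ccn2 and Tgfb2 at -1.18 and -0.89, and Vim at -0.82, while Afp lies at 0.73.

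Of 15 tested genes that bind or accompany keratins 12 had a difference below 0, against 50.9% of all genes, and the median was -0.27, against -0.00 over all genes. The 1 gene that passed, where 0.506% of all genes fell and 0.816% rose, was Vim, the intermediate filament protein of mesenchymal cells, which stellate cells and cultured hepatocytes can express. It averaged 9.25 ± 0.27 on the arrays with glucagon and 10.07 ± 0.27 without (SD, n = 4 each), and fell by 0.82 (SE 0.13, adjusted p = 0.0350, or 0.0146 with the block). Its call was lost with array medians subtracted (adjusted p = 0.0525), with the mean of a gene's probe sets (0.0781), over all probe sets (0.0982), and without any 1 of the 4 glucagon arrays or the DMSO array of experiment 1. The hepatoblast and dedifferentiation list, which also holds Vim, had 8 of 10 tested genes below 0, a median of -0.25, and 1 rise and 1 fall. The block gave 1 rise and 3 falls, of which that of Anxa2 (-0.43, adjusted p = 0.0451) was lost with the random block (0.0939). Its rise was Afp, the fetal serum protein, with a difference of 0.73 (SE 0.11, adjusted p = 0.0327), at 3.90 ± 0.23, against 3.17 ± 0.03 without glucagon (SD, n = 4 each). The level without glucagon was at the filter, so this size is only an approximate guide. Its call was lost over all probe sets and without any 1 of the 6 DMSO or glucagon-treated arrays. Of 13 tested partners of the surface markers 0 passed in limma with or without the block. Over the same arrays 3 of 16 hepatocyte genes rose, against 0.816% of all genes. These were Pck1 (by 5.15) and G6pc (by 4.08), enzymes of glucose production that glucagon is known to induce, and Tat (by 0.83), an enzyme of tyrosine breakdown. Among other liver cell markers, 0 of 11 Kupffer cell, 0 of 10 endothelial, 0 of 7 stellate cell, 0 of 3 lymphocyte and neutrophil and 0 of 2 mesothelial genes passed with or without the block.

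The other keratins gave no call. Of 48 with a probe set, 17 exceeded the filter, with mean log2 signals of 3.06 to 3.61 and no array above 4.07. Krt81, Krt6b, Krt88 and Krt42 had the highest means among them. In these cells Krt8 and Krt18 were the keratins with signals far above the filter on all 8 arrays. Krt20 also exceeded the filter on all 8. On the glucagon plus GW4064 array of experiment 2, however, it read 3.79, where Krt6b read 3.82.

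The genes of the set were also compared by how their values ran together over the arrays. After the mean of each experiment was subtracted, Sox9 correlated with Krt20 at 0.892, with Krt19 at 0.880, with Krt18 at 0.875 and with Krt8 at 0.624, over 8 arrays. Krt19 exceeded the filter on 4 of these arrays only. Krt8 and Krt18 correlated at 0.827, and Epcam and Cd24a correlated weakly with Sox9, at 0.295 and -0.0777. Without that subtraction Krt8 and Krt18 correlated at 0.822, and at 0.955 over the 7 arrays without the GW4064 array of experiment 2. In the same way Sox9 and Krt8 correlated at 0.632 over 8 arrays and at 0.826 over those 7. The 8 arrays share glucagon status, GW4064 status and cell pools, so these coefficients describe the pattern and were given no p.

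**Figure D4:**
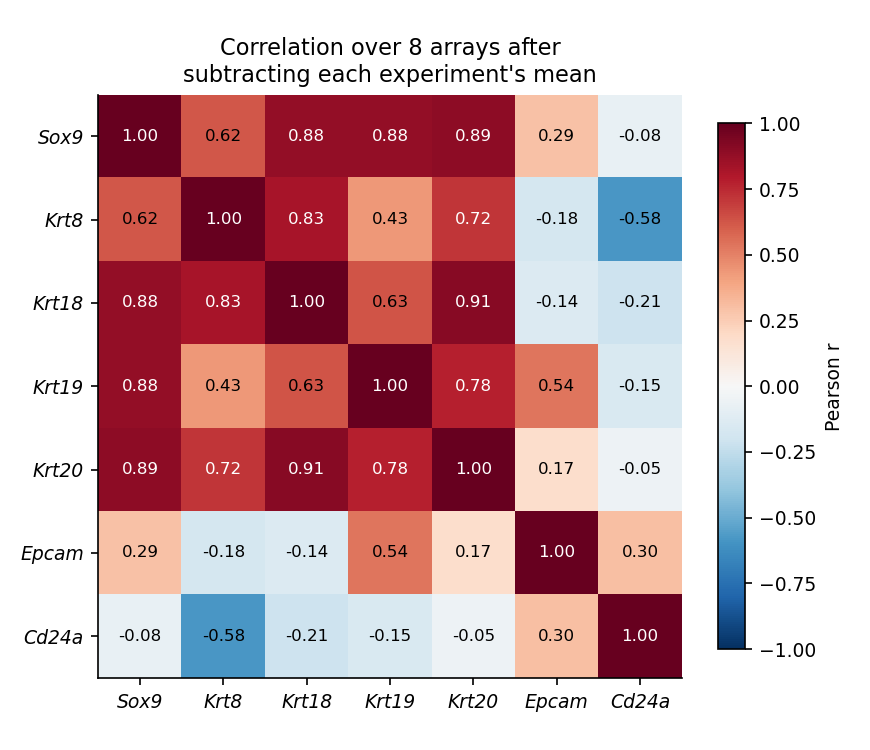
Pearson correlation between the tested genes over the 8 arrays after the mean of each experiment was subtracted, as a colour scale from -1 to 1. Sox9 has 0.875 to 0.892 with Krt18, Krt19 and Krt20, Krt18 and Krt20 have 0.911, and Krt8 and Cd24a have the lowest value, -0.584.

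Among all 13845 genes, the most like Sox9 by this correlation were Ifrd2 (0.996), Anp32b (0.994) and Med12 (0.992). Those most like Krt20 were Avpi1 (0.996), Rbpj (0.992) and Ctu2 (0.992), and those most like Krt8 were N4bp2l2 (0.989), Micu2 (0.989) and Tagln (0.986). These are the top of a search over all genes tested and describe the pattern only.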

How the data were processed

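Total RNA of 8 samples was hybridised to single-channel arrays, 300 ng per labelling reaction, with 2 technical replicates pooled per sample. The deposited log2 signals came from GeneSpring, per the series' design text, and were taken unchanged. Its version and the authors' background correction, summary of probes and scaling: not given in the sources used here. That the scale is log2 was read from the range of values. Of 41345 probe sets, 23521 had 1 gene symbol, 1814 had several and 16010 had none. Probe sets with 1 symbol were kept above the 40th percentile on at least 2 arrays, with 1 probe set per gene, the brightest on average, which left 13845 genes. Gene identifiers matched RefSeq for 23328 probe sets, not for 193, and 0 symbols differed.

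The model was fitted in R 4.3.3 with limma 3.58.1, using 1 mean per treatment over 8 arrays (4 residual and 3.06 prior degrees of freedom), 10 contrasts, two-sided moderated tests and Benjamini-Hochberg adjustment over all genes. Arrays of the same experiment came from the same cell pool and are paired: their deviations from the group means correlated at 0.350 to 0.620 over the 6 pairs of groups. A fit with the experiment as a block was also made and is printed where it changes a call. The experiment comparison used treatment and experiment as terms. Alternatives were the block, a random block, quantile normalization, subtracted medians, other filters, the mean of probe sets, all probe sets, a variance trend, and leaving out each array. On simulated data with known changes the fits were checked only for whether the mean estimate returned those changes, not for the rate of false calls. The simulated noise was independent between genes and arrays. Named genes were all 9 members, the other keratins with the highest means, up to 4 genes per list with the smallest p and those called, up to 3 with the largest experiment difference, and the 3 most like each member, of which those for Sox9, Krt20 and Krt8 are printed. The members, lists and promoter motifs were chosen with earlier results of these data known. Promoter sequences are RefSeq's, build GRCm38.p6, found for 6 of the 9 genes. The number of arrays, 2 per group, limits the precision.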

Additional observations from a re-analysis of the deposited data

How the results depend on the processing

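With the experiment as a replicate block, 1 of the 7 genes passed over all glucagon arrays (Krt20) in place of 0, and 797 of 13845 genes in place of 183. The block changed no other call among the 7. A random block for the experiment (estimated correlation 0.233) left Krt20 short of the threshold over all glucagon arrays (adjusted p = 0.344), with 444 genes called. With the block and without the GW4064 array of experiment 2, which left 1 array in that group, Sox9 gave -1.77 and Krt20 -0.88 over all glucagon arrays. Leaving out 1 array leaves a single array in its group. Without the block such fits changed calls among the 7 over all glucagon arrays, between experiments, and for the glucagon difference between experiments. With the block and without the GW4064 array of experiment 2, the call of Sox9 over all glucagon arrays changed. In that fit calls among the 7 also changed for glucagon against DMSO and for both agents against DMSO and against GW4064. Over all probe sets 0 passed between experiments. Over all alternatives the count of genes called ran from 25 to 1454 for all glucagon arrays and from 26 to 1090 between experiments. With array medians subtracted, 101 rose and 38 fell over all glucagon arrays, in place of 113 and 70. Signs turned for differences near 0: with the mean of probe sets Krt18 gave 0.00901 for both agents against GW4064, and Epcam over all glucagon arrays gave 0.016 after quantile normalization and 0.0099 with medians subtracted. Leaving out 1 array gave these ranges: Krt20 -1.47 to 0.20 for glucagon against DMSO and -1.83 to 0.0807 for both agents against GW4064, Krt19 -0.30 to 0.0781 and Sox9 -2.17 to -0.61 for the same contrast, Epcam -0.0482 to 0.0461 over all glucagon arrays and -0.0751 to 0.0367 between experiments, and Sox9 -0.54 to 1.03 for GW4064 against DMSO, -0.11 to 0.34 for both agents against glucagon, -0.92 to 0.65 for the interaction, -0.21 to 0.57 for all GW4064 arrays and -0.43 to 0.24 between experiments. Sox9 and Krt20 over all glucagon arrays stayed below 0, at -1.71 to -0.93 and -1.23 to -0.28. The causes were not tested. The number of arrays limits every test, and the differences of Krt8 and Krt18 over all glucagon arrays stayed below 0 and passed under none of the alternatives run.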
